A study of Homo sapiens with 18 samples.

Results

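The genes described here carry glucose from its entry into the cell to pyruvate and onwards into lactate or the mitochondrion. They were chosen by gene symbol, as the glucose and lactate transporters, the glycolytic enzymes, the PFKFB regulators, the lactate dehydrogenases and the enzymes that use pyruvate, and every probe annotated to one of them was taken on its own. Of 36 genes listed, 34 had a probe, with 59 probes among the 47231 of the array. Signals of SLC16A1 and SLC16A3 were not analysed here, and the gene listed as PKM2 carries its current symbol PKM. Of the 59 probes, 51 passed the signal filter and were tested, and they covered all 34 genes. The other 8 probes, 2 of HK1, 2 of ALDOA, 2 of PC, 1 of PFKP and 1 of PFKFB2, were too dim for a test. Values are signals on the log2 scale after background correction and normalization between arrays, and a difference of 1 is a doubling. A probe counts as above the floor of an array where its intensity exceeds nearly all probes of olfactory receptor genes, which these cells are not known to use, and it was tested where that held on at least 3 of the 18 arrays.

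The study examined OTX015 (MK-8628), a small molecule that occupies the bromodomains of the BET proteins, in MDA-MB-468 and MDA-MB-231, established lines of triple-negative breast cancer. In each line RNA was taken from cells given OTX015, cells given the vehicle DMSO and cells left untreated, after 4, 8 and 24 h, with 1 array for each line, treatment and time, 18 in all. By the study's methods the OTX015 concentration was 650 nM for MDA-MB-468 but 75 nM for MDA-MB-231, so line and concentration cannot be told apart. Each is a single established line grown in culture, and the labels name no genetic change made for the study and do not say that the arrays came from separate cultures, so p-values measure only the spread between these arrays.

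In glycolysis, hexokinase and phosphofructokinase commit glucose to breakdown, and aldolase splits the sugar. Triose phosphate isomerase interconverts the fragments, and the lower enzymes turn them into pyruvate with a gain of ATP. The PFKFB enzymes make and remove fructose-2,6-bisphosphate, the strongest allosteric activator of phosphofructokinase. Pyruvate is then reduced to lactate by lactate dehydrogenase or oxidized by the mitochondrial pyruvate dehydrogenase complex, which the PDK kinases switch off and the phosphatase PDP1 switches on. Tumour cells often send most of their pyruvate to lactate even with oxygen at hand.

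The mean intensity of an array lay between 174 and 503 in MDA-MB-468 and between 316 and 409 in MDA-MB-231. The dimmest was the one of MDA-MB-468 cells after 8 h of OTX015. It had 17123 probes above the signal floor, against 17643 to 20254 on the others. CDH1, which encodes the epithelial protein E-cadherin, averaged a log2 signal of 10.85 ± 0.20 in MDA-MB-468, against 5.97 ± 0.077 in MDA-MB-231 (SD, n = 9 arrays each), in MDA-MB-231 below the floor on all 9. Epithelial EPCAM, KRT8, KRT19 and CDH3 were also higher in MDA-MB-468, and mesenchymal VIM, ZEB1 and LOX were lower. Other markers did not follow. KRT18 averaged 6.25 in MDA-MB-468, against 6.65 in MDA-MB-231 (ILMN_1730848), and 7.96 against 7.88 (ILMN_1803408). Mesenchymal CD44 was higher in MDA-MB-468 by each probe (10.27 against 9.67 by ILMN_2348788). FN1 and SPARC were mostly below the floor in both lines. Of the markers of other cell types, COL1A2 and COL3A1 of fibroblasts and PTPRC and CD3E of leukocytes were below the floor on all 18 arrays. COL1A1 was above it on 6 of 9 arrays of MDA-MB-468 and 1 of 9 of MDA-MB-231. CD14, a monocyte gene, was above it on all arrays by its probe ILMN_2396444, with 8.24 ± 0.36 in MDA-MB-468, against 7.01 ± 0.13 in MDA-MB-231 (SD, n = 9 each), and on 7 of 9 and 0 of 9 by ILMN_1740015, and the part of these signals in the results was not tested. One feature of the arrays touched the members directly. In MDA-MB-468, 449 probes were lower by more than 1 on the log2 scale on both the DMSO and the untreated array at 4 h than on every later array without drug, against 0 probes in MDA-MB-231. Among the 449 were 3 member probes, of ALDOA (ILMN_1736700), PGAM1 (ILMN_1661366) and PKM (ILMN_1672650), and their values are given with and without the 4 h arrays.

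The promoters shown are those of the top 2 genes, by size of difference, that passed the thresholds under OTX015. TPI1, which also passed with a smaller difference, is not shown. Each run gives the 250 bases before an annotated transcription start, read 5′ to 3′ on the gene's strand, from RefSeq (GRCh38.p14). Capitals mark CACGTG, the E-box that MYC and related factors can bind, and ACGTG or GCGTG, the core of the site that hypoxia-inducible factors can bind, on either strand, and CACGTG contains ACGTG. PFKFB3 has 2 starts shown, at chr10:6144671-6144920 and chr10:6202682-6202931 on the plus strand, and PKM has 1, at chr15:72231191-72231440 on the minus strand.
PFKFB3 upstream start: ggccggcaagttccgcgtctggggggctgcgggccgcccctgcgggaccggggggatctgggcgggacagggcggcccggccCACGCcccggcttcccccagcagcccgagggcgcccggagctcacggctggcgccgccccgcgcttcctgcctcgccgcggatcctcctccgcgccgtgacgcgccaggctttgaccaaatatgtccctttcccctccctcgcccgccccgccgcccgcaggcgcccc
PFKFB3 downstream start: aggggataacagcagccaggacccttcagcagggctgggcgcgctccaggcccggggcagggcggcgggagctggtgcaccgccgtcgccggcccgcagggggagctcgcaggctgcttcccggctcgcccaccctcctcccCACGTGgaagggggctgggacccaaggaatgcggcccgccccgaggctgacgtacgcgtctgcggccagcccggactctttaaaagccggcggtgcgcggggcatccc
PKM: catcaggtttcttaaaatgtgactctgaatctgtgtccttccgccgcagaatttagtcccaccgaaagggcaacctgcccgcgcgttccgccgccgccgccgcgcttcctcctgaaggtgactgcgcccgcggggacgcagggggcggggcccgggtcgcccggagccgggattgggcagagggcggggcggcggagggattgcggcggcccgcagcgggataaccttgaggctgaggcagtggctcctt
The upstream window of PFKFB3 held 1 core match, 168 bases before the start, and its downstream window held a CACGTG 108 bases before the start. The PKM window held neither. Over 64 annotated starts of the 32 member genes matched in RefSeq, SLC16A3 among them, CACGTG was in 8 windows (12.5%), against 6.35% of 35114 promoters of the same length. ACGTG or GCGTG was in 35 windows (54.7%), against 43.2% of all promoters, and GGGCGG, the core of the site for SP1, was in 41 (64.1%), against 42.6%. Several starts of a gene can overlap in sequence, and a match is a description of the letters and not a site in use.

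Treated and vehicle cells of each line were compared to learn which of these transcripts move with BET inhibition. In MDA-MB-468, 3 of the 51 probes rose and 0 fell, at a p-value of at most 0.05 (limma, linear models with moderated variances, adjusted over all 23630 probes) and a log2 difference of at least 0.5. They were probes of PFKFB3, which encodes the PFKFB isoform that chiefly makes fructose-2,6-bisphosphate, of PKM, the pyruvate kinase that forms pyruvate at the last step, and of TPI1, the triose phosphate isomerase. In MDA-MB-231, 0 of 51 passed. Of all probes tested, 1.97% rose and 2.34% fell in MDA-MB-468, and 0.237% rose and 0.174% fell in MDA-MB-231. At an unadjusted p under 0.05 there were 14 member probes in MDA-MB-468, of 4982 in all, and 6 in MDA-MB-231, of 3683 in all. Since an array reads the RNA of a whole culture, fewer cells with a transcript and less of it per cell cannot be told apart.

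Of the 5 tested probes of the PFKFB regulators 1 passed, and it had the largest difference of the 3 that did. PFKFB3 (ILMN_2186061, chromosome 10) had log2 signals of 10.10, 10.05 and 9.80 in OTX015-treated MDA-MB-468 cells at 4, 8 and 24 h, against 9.58, 9.18 and 9.04 in DMSO cells and 9.52, 9.11 and 8.61 in untreated cells. Every OTX015 array lay above every array without drug, while the signal without drug was lower at each later time. The probe was chosen by its difference from DMSO, so the lack of overlap adds no support. The difference from DMSO was 0.72 (SE 0.125, 95% CI 0.43 to 1.01, limma adjusted p = 0.0217), or 1.64-fold, with means of 9.98 ± 0.17 in OTX015 cells and 9.27 ± 0.28 in DMSO cells (SD, n = 3 time points each). The other PFKFB3 probe (ILMN_1660847) had 7.69, 7.94 and 7.51 in OTX015 cells, against 7.20, 7.30 and 7.21 in DMSO cells and 7.28, 7.18 and 6.99 in untreated cells. Its groups did not overlap either, but its difference of 0.48 (SE 0.105, limma adjusted p = 0.0433) was under the fold minimum. PFKFB4, an isoform known for its induction by hypoxia, had 8.27, 7.92 and 7.84 in OTX015 cells, against 7.84, 7.28 and 7.81 in DMSO cells and 7.78, 7.35 and 7.82 in untreated cells. Its OTX015 arrays stood above DMSO at 4 and 8 h and 0.03 above it at 24 h, and the difference of 0.37 (SE 0.130, limma adjusted p = 0.150) did not pass. Both tested probes of PFKFB2, the isoform best known from heart, were within 0.10 of DMSO.

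In MDA-MB-231 the same PFKFB3 probes gave 9.75, 9.70 and 9.59 (ILMN_2186061) and 7.78, 7.48 and 7.44 (ILMN_1660847) in OTX015 cells at 4, 8 and 24 h, against 9.56, 9.51 and 9.53 and 7.48, 7.38 and 7.39 in DMSO cells, and 9.56, 9.50 and 9.41 and 7.43, 7.47 and 7.46 in untreated cells. Both probes differed from DMSO by 0.15 (SE 0.0701, limma adjusted p = 0.328, and SE 0.0798, limma adjusted p = 0.403). All 3 OTX015 arrays were above DMSO at their own time, with a small gap. For ILMN_2186061 every OTX015 array also lay above every array without drug, the highest of which read 9.56. For ILMN_1660847 these groups overlapped. The share of all probes without overlap was not counted. PFKFB4 had 7.85, 8.43 and 8.65 in OTX015 cells, against 8.02, 8.21 and 8.55 in DMSO cells and 7.92, 8.11 and 8.42 in untreated cells, and differed by 0.05.

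**Figure D1:**
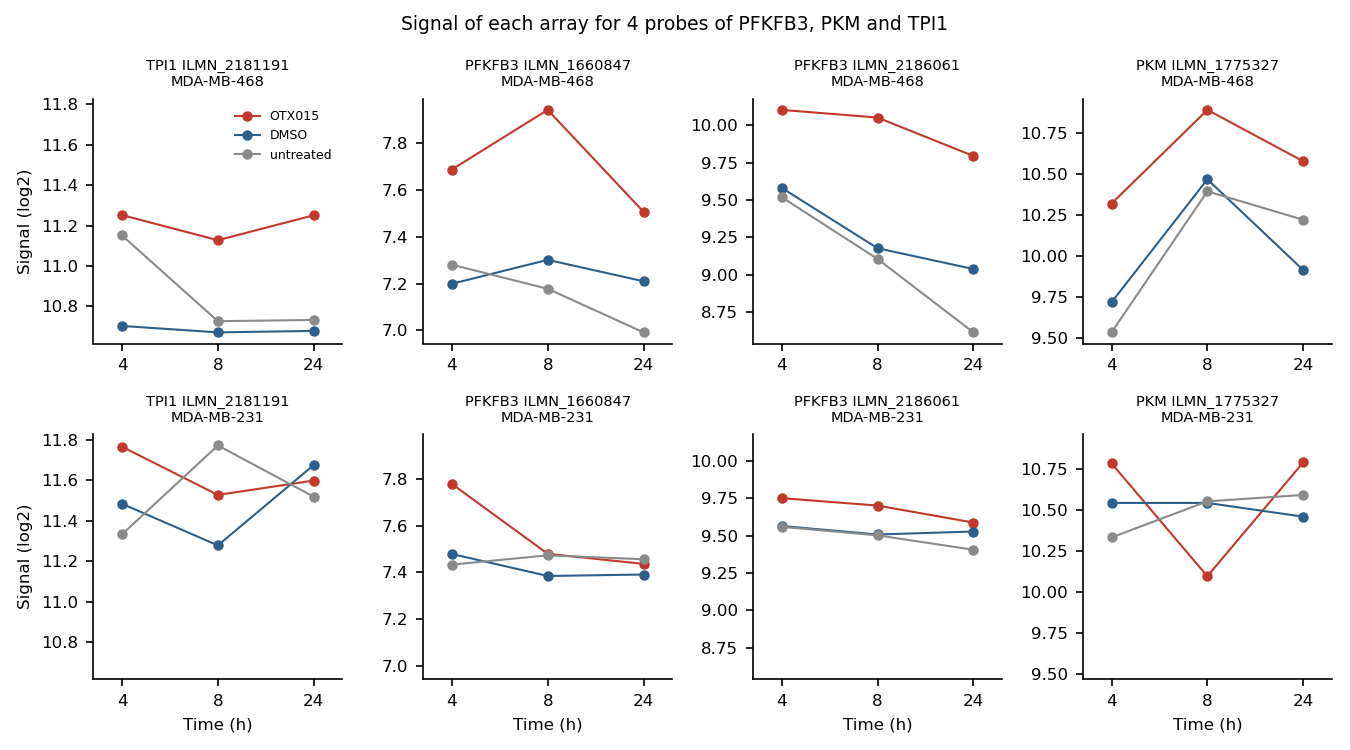
Log2 signal of each array (y axis) by time in hours (x axis), with MDA-MB-468 in the upper row and MDA-MB-231 in the lower row and 1 point per array, coloured by treatment. Shown are the probes of TPI1 (ILMN_2181191) and PKM (ILMN_1775327) that passed and both probes of PFKFB3. The other tested probes of TPI1 and PKM are not shown. The OTX015 points of PFKFB3 ILMN_2186061 lie above all points without drug in both lines. They lie between 9.80 and 10.10 in MDA-MB-468 and between 9.59 and 9.75 in MDA-MB-231, where the highest point without drug is 9.56.

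Of the upper glycolytic enzymes, TPI1 alone had a probe past the thresholds in MDA-MB-468. TPI1 (ILMN_2181191, chromosome 12) had 11.25, 11.13 and 11.25 in OTX015 cells at 4, 8 and 24 h, against 10.70, 10.67 and 10.68 in DMSO cells and 11.15, 10.73 and 10.73 in untreated cells. The difference from DMSO was 0.53 (SE 0.109, 95% CI 0.27 to 0.78, limma adjusted p = 0.0364), or 1.44-fold. The OTX015 and DMSO arrays of this probe, likewise chosen by their difference, did not overlap. The untreated array at 4 h lay above the OTX015 array at 8 h. Against the mean of DMSO and untreated cells the difference was 0.43 (limma adjusted p = 0.0256), under the fold minimum. The other TPI1 probe (ILMN_1707627) had 11.37, 11.55 and 12.004 in OTX015 cells, against 11.06, 11.46 and 11.23 in DMSO cells and 10.88, 11.33 and 10.58 in untreated cells, a difference from DMSO of 0.39 (SE 0.200, limma adjusted p = 0.320). In MDA-MB-231 TPI1 ILMN_2181191 had 11.77, 11.53 and 11.60 in OTX015 cells, against 11.48, 11.28 and 11.68 in DMSO cells and 11.33, 11.77 and 11.52 in untreated cells, with overlapping groups.

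ALDOA, the main aldolase of most tissues, had bright probes that disagreed on the 4 h arrays without drug, and the cause was not tested. Its probe ILMN_1736700 had log2 signals of 12.31, 12.31 and 12.53 in OTX015-treated MDA-MB-468 cells at 4, 8 and 24 h, against 6.91, 12.59 and 12.28 in DMSO cells and 6.72, 12.41 and 11.88 in untreated cells. On the scale of raw intensity the 4 h arrays read 6240 with OTX015, 205 with DMSO and 162 untreated. The second ALDOA probe (ILMN_1741148) read 4212, 5267 and 4463 on these same 3 arrays, so only the first was low on the 4 h arrays without drug. The first probe gave the largest difference from DMSO of all member probes, 1.79 (SE 1.05, limma adjusted p = 0.385). Leaving out the 4 h arrays gave -0.01. The second had log2 signals of 11.71, 12.49 and 11.86 in OTX015 cells, against 11.68, 11.90 and 11.42 in DMSO cells and 11.60, 11.87 and 11.44 in untreated cells, and differed by 0.35 (SE 0.122, limma adjusted p = 0.144). The 2 dim ALDOA probes stayed between 6.04 and 6.25 (ILMN_1681374) and between 6.05 and 6.28 (ILMN_2251253) on all 9 arrays of MDA-MB-468.

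In MDA-MB-231 neither bright ALDOA probe passed. ILMN_1736700 had 11.77, 11.49 and 11.72 in OTX015 cells at 4, 8 and 24 h, against 11.53, 11.55 and 11.20 in DMSO cells and 11.48, 11.56 and 11.37 in untreated cells. ILMN_1741148 had 11.39, 11.21 and 11.22 in OTX015 cells, against 11.35, 11.31 and 11.02 in DMSO cells and 11.42, 11.40 and 11.24 in untreated cells. The differences from DMSO were 0.23 (limma adjusted p = 0.220) and 0.04 (limma adjusted p = 0.844). The dim probes ranged from 6.10 to 6.30 (ILMN_1681374) and from 6.20 to 6.32 (ILMN_2251253).

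Glucose uptake and the first kinase step gave no call. SLC2A1, the widespread glucose transporter GLUT1, had 10.24, 9.88 and 9.78 in OTX015-treated MDA-MB-468 cells at 4, 8 and 24 h, against 10.09, 9.75 and 9.69 in DMSO cells and 10.14, 9.71 and 9.63 in untreated cells, so each OTX015 array was slightly the highest of its time, by 0.13 on average over DMSO (SE 0.0813, limma adjusted p = 0.439). In MDA-MB-231 SLC2A1 had 10.94, 11.28 and 11.13 in OTX015 cells, against 10.97, 11.16 and 11.05 in DMSO cells and 10.92, 10.98 and 11.13 in untreated cells, a difference of 0.06. SLC2A3, the high-affinity transporter GLUT3, had 5.97, 5.86 and 5.78 in OTX015-treated MDA-MB-468 cells, against 6.34, 6.17 and 5.99 in DMSO cells, a difference of -0.30 (SE 0.0833, limma adjusted p = 0.0839). That probe was above the floor on none of the 3 OTX015 arrays and on 1 of 3 DMSO arrays, so no fold is given. In MDA-MB-231 it had 8.72, 9.0003 and 8.70 in OTX015 cells, against 8.55, 8.61 and 8.70 in DMSO cells, a difference of 0.19 (SE 0.0787, limma adjusted p = 0.257).

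HK2, the inducible hexokinase of many tumours, was measured by 2 probes. In MDA-MB-468 ILMN_1723486 had 8.93, 8.58 and 8.28 in OTX015 cells at 4, 8 and 24 h, against 9.23, 8.52 and 8.65 in DMSO cells and 9.21, 8.84 and 9.01 in untreated cells. ILMN_2156172 had 7.53, 7.16 and 7.45 in OTX015 cells, against 7.87, 7.50 and 7.46 in DMSO cells and 7.83, 7.62 and 7.50 in untreated cells. The differences from DMSO were -0.21 and -0.23 (limma adjusted p = 0.401 and 0.255), with overlapping groups. In MDA-MB-231 the probes had 9.28, 9.28 and 9.42 and 7.75, 7.88 and 8.00 in OTX015 cells, against 9.19, 9.30 and 9.52 and 7.42, 7.91 and 7.83 in DMSO cells and 9.41, 9.34 and 9.36 and 7.66, 7.83 and 7.98 in untreated cells, with differences of -0.01 and 0.15. The brighter probe of HK1, the housekeeping hexokinase, was within 0.02 of DMSO in both lines, and its dimmer tested probe (ILMN_1761829) did not pass either. In MDA-MB-468 that probe was above the floor on all 3 OTX015 arrays, on none of 3 DMSO arrays and on 1 of 3 untreated arrays. With the DMSO arrays held at the floor, its OTX015 mean was 1.16-fold higher, without allowance for error. The fitted difference did not pass (limma adjusted p = 0.175), and at 8 h it read 6.46 with OTX015 and 6.43 untreated. In MDA-MB-231 it differed by -0.12. The remaining upper enzymes, the isomerase GPI, the phosphofructokinases PFKL, PFKM and PFKP and the brain-type aldolase ALDOC, ranged from -0.16 (PFKM) to 0.41 (PFKL ILMN_1713037) in MDA-MB-468 and from -0.23 (PFKL ILMN_2287253) to 0.12 (ALDOC) in MDA-MB-231, and none passed. PFKL ILMN_2287253 was above the floor on none of 3 OTX015 arrays and 2 of 3 DMSO arrays of MDA-MB-231.

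Among the lower enzymes PKM had the probe that rose. PKM (ILMN_1775327, chromosome 15) had 10.32, 10.89 and 10.58 in OTX015-treated MDA-MB-468 cells at 4, 8 and 24 h, against 9.72, 10.47 and 9.91 in DMSO cells and 9.54, 10.39 and 10.22 in untreated cells. OTX015 was the highest array at each time, although the 4 h OTX015 array lay below the 8 h DMSO array. The difference from DMSO was 0.56 (SE 0.116, 95% CI 0.29 to 0.83, limma adjusted p = 0.0359), or 1.48-fold. PKM ILMN_1672650, low on the arrays without drug at 4 h, had 9.56, 10.10 and 10.02 in OTX015 cells, against 6.44, 9.63 and 9.11 in DMSO cells and 6.24, 9.42 and 8.999 in untreated cells. It had the second largest difference of the member probes, but with SE 0.485 (limma adjusted p = 0.123) it did not pass. Over the 8 and 24 h arrays alone it differed by 0.69 (limma adjusted p = 0.0458), which passed. The third PKM probe (ILMN_2366634) had 10.66, 11.44 and 11.08 in OTX015 cells, against 11.07, 11.20 and 10.56 in DMSO cells, a difference of 0.12 (SE 0.183, limma adjusted p = 0.780). At 8 and 24 h all 3 PKM probes were above DMSO. The gaps were 0.47 and 0.91 (ILMN_1672650), 0.42 and 0.66 (ILMN_1775327) and 0.24 and 0.52 (ILMN_2366634). At 4 h they were 3.12, 0.60 and -0.41 in the same order. Whether the probes differ in their response, and which transcript forms each one reads, was not tested. In MDA-MB-231 PKM ILMN_1775327 had 10.78, 10.09 and 10.79 in OTX015 cells, against 10.54, 10.54 and 10.46 in DMSO cells and 10.33, 10.55 and 10.59 in untreated cells. There all 3 probes were above DMSO at 4 h (0.16 to 0.24) and at 24 h (0.27 to 0.43) and below it at 8 h (-0.48 to -0.29), and on average they were within 0.07 of it.

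PGAM1, a phosphoglycerate mutase, had both probes low on the 4 h arrays without drug, by unlike amounts. Its probe ILMN_1661366 had 9.45, 10.11 and 9.47 in OTX015-treated MDA-MB-468 cells at 4, 8 and 24 h, against 6.63, 9.70 and 9.32 in DMSO cells and 6.59, 9.62 and 8.74 in untreated cells, a difference from DMSO of 1.12 (SE 0.479, limma adjusted p = 0.230), and of 0.28 when the 4 h arrays were left out. Its other probe (ILMN_2112417) had 10.24, 10.07 and 10.35 in OTX015 cells, against 9.34, 10.59 and 10.17 in DMSO cells and 9.26, 10.60 and 9.95 in untreated cells, a difference from DMSO of 0.19. Without drug, the 4 h arrays differed from later ones by -2.74 for the first probe and -1.03 for the other. ALDOA ILMN_1736700, PGAM1 ILMN_1661366 and PKM ILMN_1672650 had the 3 largest standard errors of the 51 member probes in the comparison of OTX015 with DMSO.

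**Figure D2:**
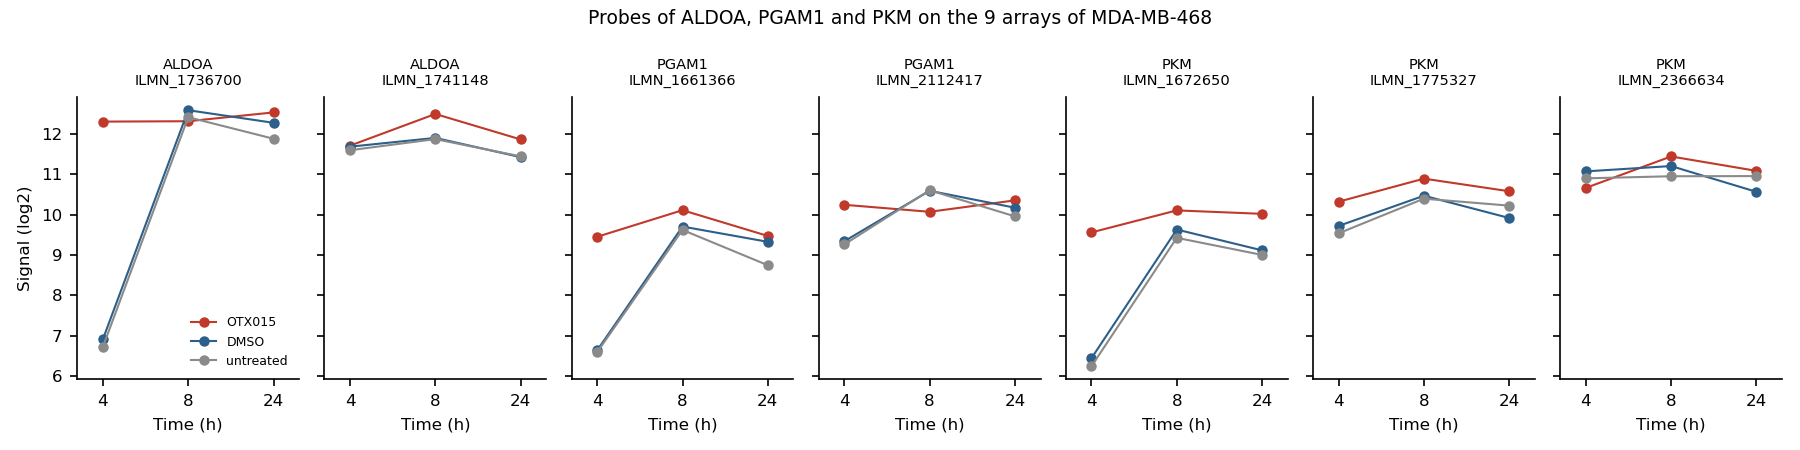
Log2 signal (y axis) by time in hours (x axis) for probes of ALDOA, PGAM1 and PKM on the 9 arrays of MDA-MB-468, 1 point per array, coloured by treatment. ALDOA ILMN_1736700 reads 12.31 with OTX015 at 4 h, 6.91 with DMSO and 6.72 untreated, while ALDOA ILMN_1741148 stays between 11.42 and 12.49 on all arrays.

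PGK1, the phosphoglycerate kinase, had 12.04, 12.07 and 11.87 (ILMN_1755749) in OTX015-treated MDA-MB-468 cells at 4, 8 and 24 h, against 11.79, 12.03 and 11.72 in DMSO cells and 11.997, 12.02 and 11.69 in untreated cells. Its second probe (ILMN_2216852) had 10.55, 10.25 and 10.04 in OTX015 cells, against 10.46, 10.22 and 9.83 in DMSO cells and 10.29, 10.25 and 9.70 in untreated cells. The differences from DMSO were 0.14 and 0.11 (limma adjusted p = 0.427 and 0.576), within the spread over time. In MDA-MB-231 the probes had 12.19, 12.07 and 12.37 and 10.68, 10.88 and 10.80 in OTX015 cells, against 12.21, 12.34 and 12.36 and 10.74, 10.69 and 10.73 in DMSO cells and 12.14, 12.31 and 12.20 and 10.80, 10.81 and 10.71 in untreated cells, with differences of -0.09 and 0.06.

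LDHA, the lactate dehydrogenase subunit that favours lactate, was measured by 2 bright probes and a dim one. In MDA-MB-468 the bright probes had 13.31, 13.44 and 13.26 (ILMN_1807106) and 13.44, 13.26 and 13.39 (ILMN_3249748) in OTX015 cells at 4, 8 and 24 h, against 13.29, 13.02 and 12.93 and 13.59, 13.23 and 13.16 in DMSO cells and 13.44, 13.03 and 12.77 and 13.60, 13.29 and 12.93 in untreated cells. The dim probe (ILMN_3251145) had 6.65, 6.21 and 6.77 in OTX015 cells, against 6.64, 6.16 and 6.13 in DMSO cells and 6.48, 6.41 and 6.38 in untreated cells. At 24 h each LDHA probe was higher with OTX015 than on either array without drug, and at 4 h the bright probes were not higher than untreated. The mean differences of 0.26, 0.03 and 0.23 did not pass (limma adjusted p = 0.307, 0.922 and 0.421). In MDA-MB-231 the 3 probes had 13.17, 13.27 and 13.59, 13.41, 13.41 and 13.65, and 6.96, 7.21 and 7.02 in OTX015 cells, against 13.09, 13.10 and 13.42, 13.31, 13.51 and 13.56, and 6.74, 6.78 and 6.94 in DMSO cells and 13.14, 13.25 and 13.36, 13.37, 13.48 and 13.57, and 7.07, 6.79 and 7.02 in untreated cells. The differences were 0.14, 0.03 and 0.24, the last without overlap of OTX015 and DMSO arrays but with overlap of OTX015 and untreated arrays (limma adjusted p = 0.185). The 3 GAPDH probes, the 2 enolase genes ENO1 and ENO2 and LDHB, the other lactate dehydrogenase subunit, ranged from -0.25 (ENO1) to 0.27 (GAPDH ILMN_1802252) in MDA-MB-468 and from -0.03 (ENO1) to 0.13 (ENO2 and GAPDH ILMN_1343295) in MDA-MB-231.

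The genes that govern pyruvate oxidation did not pass in either line. PDK1, a kinase that inactivates pyruvate dehydrogenase, had 6.30, 5.95 and 6.32 in OTX015-treated MDA-MB-468 cells at 4, 8 and 24 h, against 6.48, 6.41 and 6.41 in DMSO cells and 6.32, 6.41 and 6.37 in untreated cells. It was below the floor on all 3 OTX015 arrays, above it on all 3 DMSO arrays and above it on 1 of 3 untreated arrays. With the OTX015 arrays held at the floor, the DMSO mean was 1.04-fold higher, without allowance for error. The fitted difference of -0.24 did not pass (SE 0.110, limma adjusted p = 0.260). In MDA-MB-231 PDK1 had 6.26, 6.16 and 6.23 in OTX015 cells, against 6.36, 6.29 and 6.36 in DMSO cells and 6.31, 6.28 and 6.31 in untreated cells, near the floor throughout. PDK2, PDK3, PDK4 and PDP1 ranged from -0.27 (PDK3 ILMN_1827736) to 0.18 (PDK3 ILMN_1776582) in MDA-MB-468 and from -0.02 (PDK2) to 0.19 (PDK4) in MDA-MB-231.

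DLAT, the acetyltransferase core of the pyruvate dehydrogenase complex, had 9.29, 9.32 and 8.83 in OTX015-treated MDA-MB-468 cells at 4, 8 and 24 h, against 9.41, 9.31 and 9.23 in DMSO cells and 9.50, 9.48 and 9.13 in untreated cells, a difference from DMSO of -0.17 (SE 0.101, limma adjusted p = 0.402). In MDA-MB-231 it had 8.85, 8.84 and 8.88 in OTX015 cells, against 8.98, 9.004 and 9.04 in DMSO cells and 8.92, 9.10 and 9.06 in untreated cells. There all 3 OTX015 arrays lay below all 6 without drug, and the difference of -0.15 (SE 0.0711, limma adjusted p = 0.310) did not pass. PDHX, which anchors the dihydrolipoamide dehydrogenase subunit to that core, was below DMSO at every time in both lines, as were PDK1 and ENO1. It had 10.30, 9.94 and 10.19 in OTX015-treated MDA-MB-468 cells, against 10.43, 10.29 and 10.48 in DMSO cells, and 8.98, 9.08 and 9.02 in OTX015-treated MDA-MB-231 cells, against 9.18, 9.31 and 9.27 in DMSO cells. The differences of -0.26 (limma adjusted p = 0.170) and -0.22 (limma adjusted p = 0.127) did not pass. The subunits PDHA1, PDHB and DLD lay between -0.07 and 0.15 in MDA-MB-468 and between 0.10 and 0.13 in MDA-MB-231. PC, the carboxylase that makes oxaloacetate from pyruvate, reached 0.35 in MDA-MB-468 by 1 of its 2 tested probes (ILMN_2340347, limma adjusted p = 0.297), and ME1, the cytosolic malic enzyme that makes pyruvate and NADPH, differed by 0.05 in MDA-MB-468, against -0.06 in MDA-MB-231.

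Across all 51 member probes the median difference of OTX015 from DMSO was 0.11 in MDA-MB-468, against -0.01 over all probes tested, and 34 of 51 were above 0, against 47.4% of all. In MDA-MB-231 the median was 0.05, against -0.00 over all, and 36 of 51 were above 0, against 49.2% of all. Each treated array stands alone at its time, so the time course is a description. A member probe was at least 0.5 above DMSO at 4, 8 and 24 h in 9, 6 and 9 cases in MDA-MB-468, where 8.11%, 6.46% and 4.70% of all probes were, and at least 0.5 below in 0, 2 and 0 cases, where 6.46%, 7.82% and 5.30% were. The 9 above at 4 h included ALDOA ILMN_1736700 (5.40), PKM ILMN_1672650 (3.12) and PGAM1 ILMN_1661366 (2.82), which were low without drug at 4 h. They also included PGAM1 ILMN_2112417 (0.90), PFKL ILMN_1713037 (0.70) and PKM ILMN_1775327 (0.60). Without drug, these last probes differed at 4 h from later arrays by -1.03, -0.68 and -0.62. In MDA-MB-231 there were 0, 0 and 2 cases above, the 2 being PDK4 (8.60 with OTX015, 7.96 with DMSO) and ALDOA ILMN_1736700 at 24 h, and none below. Above DMSO at all 3 times were 18 member probes in MDA-MB-468 (35.3%, against 17.9% of all) and 13 in MDA-MB-231 (25.5%, against 18.3%), and below it at all 3 were 8 (15.7%, against 22.3%) and 6 (11.8%, against 19.5%).

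**Figure D3:**
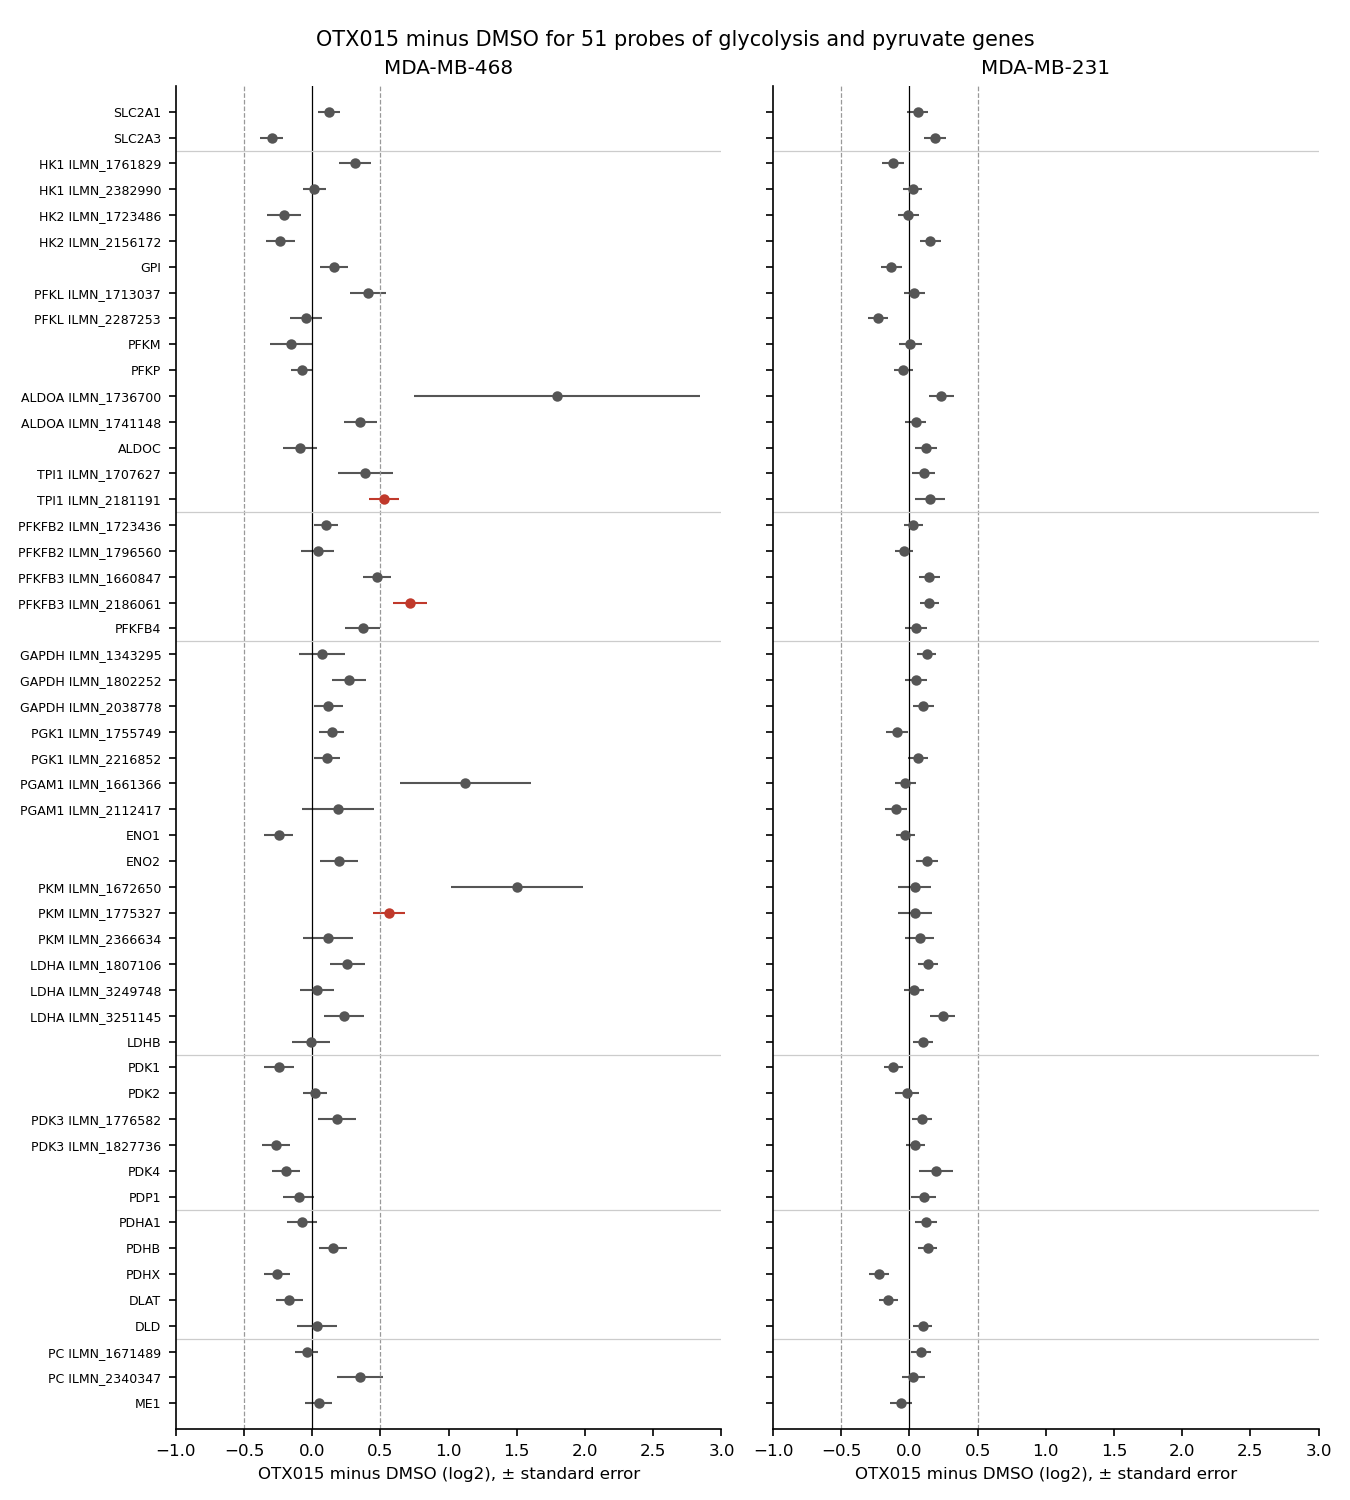
Difference of OTX015 from DMSO on the log2 scale (x axis, points with standard error) for the 51 tested probes (rows, grouped by role), with MDA-MB-468 on the left and MDA-MB-231 on the right, red where a probe passed the thresholds and dashed lines at 0.5 in either direction. The 3 red points in MDA-MB-468 are TPI1 at 0.53, PFKFB3 at 0.72 and PKM at 0.56, and the widest bar is that of ALDOA ILMN_1736700 at 1.79.

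The 3 calls in MDA-MB-468 were close to the limits of the test. With each array scaled to a common median in place of quantile normalization, which put the median of all probes at -0.12, PFKFB3 was 0.38, PKM 0.23 and TPI1 0.24 above DMSO and 0 member probes passed. The vehicle itself gave no call. DMSO against untreated cells gave 0 calls of 51 in either line, with 0% of all probes called, and at an unadjusted p under 0.05 there were 0 member probes of 98 in all in MDA-MB-468 and 1 of 650 in MDA-MB-231.

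The response itself was compared between the lines in a fit of all 18 arrays. Of all probes, 0.804% had a response higher in MDA-MB-468 and 1.09% had one lower, while of the 51 member probes 0 passed, with 11 of 3541 at an unadjusted p under 0.05. PFKFB3 ILMN_2186061 came nearest on the higher side, with a response greater by 0.57 in MDA-MB-468 (SE 0.140, limma adjusted p = 0.0551). SLC2A3 had a response of -0.30 in MDA-MB-468, against 0.19 in MDA-MB-231, and this difference of -0.48 (SE 0.112, limma adjusted p = 0.0439) was under the fold minimum of 0.5. PKM ILMN_1775327 differed by 0.52 (SE 0.213, limma adjusted p = 0.260) and TPI1 ILMN_2181191 by 0.37 (SE 0.185, limma adjusted p = 0.373), so these 2 responses were not shown to differ between the lines.

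Without drug the lines differed far more than treated from vehicle cells. In the 12 DMSO and untreated arrays, 25 of 51 member probes passed between MDA-MB-468 and MDA-MB-231, 8 higher in MDA-MB-468 for 7 genes and 17 lower for 15 genes. Of all probes, 16.8% were higher and 16.9% lower. The spread behind these tests is that between the DMSO and the untreated array of the same time. The median of the members was -0.21, against -0.03 over all probes.

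Of the probes higher in MDA-MB-468, those of PDK3 and ME1 had the largest differences. PDK3, a kinase of the pyruvate dehydrogenase complex, had a lowest, median and highest log2 signal of 10.04, 10.28 and 10.43 (ILMN_1827736) in MDA-MB-468, against 7.83, 7.87 and 8.07 in MDA-MB-231, a difference of 2.35 (SE 0.0459, limma adjusted p = 3.17e-15), and its second probe differed by 1.11. ME1 had 9.38, 9.49 and 9.72 in MDA-MB-468, against 7.23, 7.42 and 7.54 in MDA-MB-231, a difference of 2.11 (SE 0.0640, limma adjusted p = 4.53e-13). PDHX (1.09), PFKFB2 (0.83), PFKL (0.78), GPI (0.64) and PDHA1 (0.52) made up the rest of the higher group, with the PFKFB2 probe (ILMN_1796560) above the floor on 6 of 6 arrays of MDA-MB-468, against 1 of 6 in MDA-MB-231. For all 8 probes the arrays of the lines did not overlap. They were chosen by this same comparison, so this adds no support, and the share over all probes was not counted.

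Lower in MDA-MB-468 were mostly transporters and glycolytic enzymes. SLC2A3 had 5.98, 6.13 and 6.34 in MDA-MB-468, above the floor on 1 of 6 arrays, against 8.50, 8.59 and 8.72 in MDA-MB-231, a difference of -2.46 (SE 0.0459, limma adjusted p = 1.92e-15). LDHB had 9.37, 9.61 and 9.77 in MDA-MB-468, against 11.54, 11.61 and 11.75 in MDA-MB-231, a difference of -2.02 (SE 0.0549, limma adjusted p = 1.28e-13). ENO2, the neuronal enolase, had 6.75, 6.91 and 7.005 in MDA-MB-468, against 8.54, 8.65 and 8.76 in MDA-MB-231, a difference of -1.76 (SE 0.0530, limma adjusted p = 4.16e-13). Each of these 3 genes, likewise chosen by this comparison, was separated by more than 1 log2 unit between the nearest arrays of the lines. PGAM1 had 9.26, 10.06 and 10.60 (ILMN_2112417) in MDA-MB-468, against 11.60, 11.64 and 11.75 in MDA-MB-231, a difference of -1.67 (SE 0.0492, limma adjusted p = 3.26e-13). Its probe ILMN_1661366 had 6.59, 9.03 and 9.70 in MDA-MB-468, against 10.76, 10.86 and 10.98 in MDA-MB-231, a difference of -2.43, and -1.52 without the 4 h arrays. PKM ILMN_1672650 had 6.24, 9.06 and 9.63 in MDA-MB-468, against 9.60, 9.73 and 9.82 in MDA-MB-231, a difference of -1.41 (SE 0.0631, limma adjusted p = 4.02e-11), and -0.43 without the 4 h arrays, under the fold minimum.

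The other probes lower in MDA-MB-468 were PFKM (-1.21), SLC2A1 (-1.20), TPI1 (-1.09 and -0.73), ALDOA ILMN_1736700 (-0.99), PDK4 (-0.88), ALDOC (-0.88), PFKP (-0.63), PGK1 ILMN_2216852 (-0.62), PFKFB4 (-0.56) and LDHA ILMN_3251145 (-0.52), the last above the floor on 4 of 6 arrays of MDA-MB-468. The direction for ALDOA rested on the 4 h arrays, since without them the probe was 0.87 higher in MDA-MB-468 (limma adjusted p = 7.61e-06), and ALDOA ILMN_1741148 was 0.36 higher with all arrays, under the fold minimum. Without the 4 h arrays 23 of the 25 probes kept their call, and 26 probes passed, 9 higher and 17 lower, with ALDOA ILMN_1736700 turned in direction and 2 probes newly called. The bright probes of LDHA, both of them lower in MDA-MB-468 by 0.15 and 0.16, and the 3 of GAPDH, higher by 0.10 to 0.20, lay under the fold minimum.

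**Figure D4:**
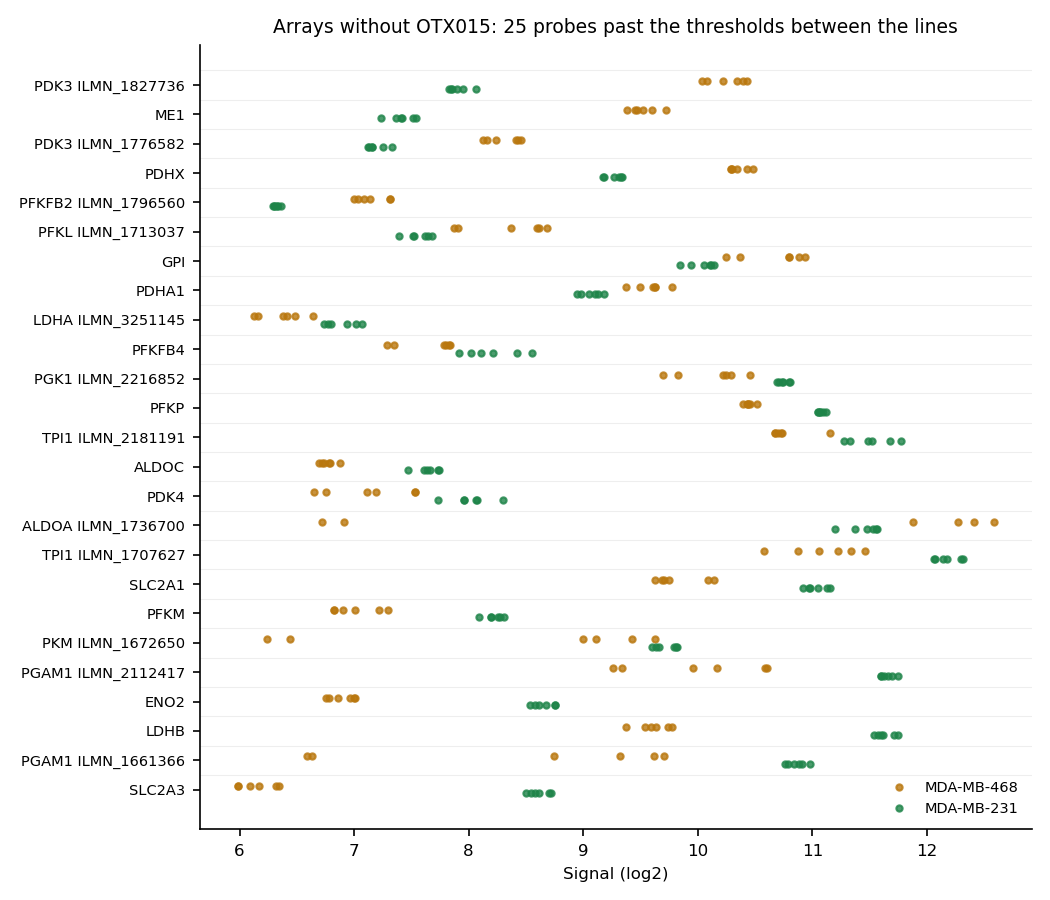
Log2 signal (x axis) of the 6 arrays without OTX015 of MDA-MB-468 and of MDA-MB-231 (1 point per array) for the 25 member probes that passed between the lines, ordered by the difference. PDK3 ILMN_1827736 at the top lies between 10.04 and 10.43 in MDA-MB-468 and between 7.83 and 8.07 in MDA-MB-231, and the points of ALDOA ILMN_1736700 in MDA-MB-468 lie on both sides of those of MDA-MB-231.

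Time without drug gave the background to the drug arrays. In MDA-MB-468, 5 member probes were higher and 6 lower at 24 h than at 4 h, where 7.71% of all probes were higher and 4.81% lower, and in MDA-MB-231, 1 was higher, where 0.258% of all were higher and 0.592% lower. With arrays scaled to a common median the split in MDA-MB-468 was 3 higher and 30 lower, with the median of all probes at -0.34. The tests rest on 1 DMSO and 1 untreated array at each time.

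The higher probes in MDA-MB-468 were chiefly those that were low at 4 h. ALDOA ILMN_1736700 differed by 5.26, PKM ILMN_1672650 by 2.72 and PGAM1 by 2.42 (ILMN_1661366) and 0.76 (ILMN_2112417), and PFKL ILMN_1713037, with 8.69 and 8.37 on the DMSO and untreated arrays at 24 h and 7.91 and 7.87 at 4 h, by 0.64 (limma adjusted p = 0.00491). Against 8 h the same 5 probes gave -0.42, -0.47, -0.63, -0.53 and -0.08, and no member probe passed. The lower probes included PFKFB3. PFKFB3 ILMN_2186061 had 9.04 and 8.61 on the DMSO and untreated arrays at 24 h and 9.58 and 9.52 at 4 h, a difference of -0.72 (SE 0.133, limma adjusted p = 0.00631), as large as its difference between OTX015 and DMSO. PDK4, a starvation-induced pyruvate dehydrogenase kinase, had 6.65 and 6.76 at 24 h and 7.53 and 7.53 at 4 h, a difference of -0.83 (SE 0.0832, limma adjusted p = 0.000407). GAPDH ILMN_1343295 had 12.73 and 12.68 at 24 h and 13.40 and 13.45 at 4 h, a difference of -0.72 (SE 0.0921, limma adjusted p = 0.00134), while the other GAPDH probes differed by -0.18 and -0.25 and did not pass. PGK1 ILMN_2216852 (-0.61) and both bright LDHA probes (-0.51 and -0.55) were the others that fell. In MDA-MB-231 PFKFB4 was the 1 probe that passed, with 8.55 and 8.42 at 24 h and 8.02 and 7.92 at 4 h, a difference of 0.52 (SE 0.0859, limma adjusted p = 0.00462).

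Around these genes, 5 further lists of the same metabolism were examined. Under OTX015 in MDA-MB-468, 1 of 30 tested probes rose and 2 fell in the list of other transporters, isoforms and pyruvate genes, and none of 11 passed in the pentose phosphate pathway, none of 16 in glycogen and hexose phosphate use, none of 27 in the tricarboxylic acid cycle and none of 25 among the sensors and regulators of glycolytic genes. In MDA-MB-231 no probe of the 5 lists passed. TXNIP (0.46, SE 0.0840, limma adjusted p = 0.00691) and PGD (0.28, SE 0.0727, limma adjusted p = 0.0465) met the adjusted p there but were under the fold minimum. PRKAA1 ILMN_2357577 did the same in MDA-MB-468 (-0.38, SE 0.0815, limma adjusted p = 0.0384). All 3 probes that passed in MDA-MB-468 were of hexose transporters. SLC2A8 had 8.46, 8.83 and 7.96 in OTX015-treated MDA-MB-468 cells at 4, 8 and 24 h, against 7.74, 7.76 and 7.67 in DMSO cells, and rose by 0.69 (SE 0.147, limma adjusted p = 0.0384). SLC2A10 ILMN_2120247 had 8.04, 7.29 and 8.45 in OTX015 cells, against 8.52, 8.26 and 8.97 in DMSO cells, a fall with a difference of -0.66 (SE 0.129, limma adjusted p = 0.0303). The other tested SLC2A10 probe (ILMN_1663351) differed by -0.68 (SE 0.207, limma adjusted p = 0.106) and did not pass. SLC2A12 had 7.08, 6.76 and 6.82 in OTX015 cells, against 7.68, 7.32 and 7.43 in DMSO cells, a difference of -0.58 (SE 0.0950, limma adjusted p = 0.0176). SLC2A8 and SLC2A12 had no overlap between OTX015 and DMSO arrays. They were chosen by this same comparison, so this adds no support, and the share over all probes was not counted.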

How the data were processed

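RNA of 18 samples of MDA-MB-468 and MDA-MB-231 was hybridized on Illumina HumanHT-12 v4 bead arrays. The authors deposited bead intensities per probe on a linear scale from GenomeStudio (version not given in the sources used here), and a table of log2 values normalized between arrays, which lay a median of 0.0134 from log2 intensities after quantile normalization. The intensities were background-corrected by normexp (offset 50; limma 3.58.1, R 4.3.3), put on the log2 scale and quantile-normalized. A signal floor was set for each array from its 457 probes of olfactory receptor genes (95th percentile), and the 23630 of 47231 probes that exceeded it on 3 or more arrays were tested. Of all probes, 30113 carry 1 gene symbol of RefSeq. Signals of different probes are not comparable as levels.

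OTX015 and DMSO were compared with limma in the 9 arrays of a line with time as a factor, and the lines in 1 fit of all 18 arrays, with Benjamini-Hochberg adjustment over all probes tested. The untreated arrays helped to estimate the spread. Arrays without drug were compared between lines and times with a mean for each line and time. Members, lists and tests were chosen with earlier results of these data known. Values on every array are given for probes past the thresholds under OTX015, for PFKFB3, PFKFB4, PGK1, LDHA, DLAT, PDK1, HK2 and SLC2A1 and for ALDOA, and for up to 8 probes between lines and times; others were named for contrast. The code was tested on simulated data. Alternatives varied background correction, normalization, filter, table, controls, time term, moderation, weights and arrays. Detection p-values and control probes were not used here. Figures were drawn with matplotlib 3.10.9.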

Additional observations from a re-analysis of the deposited data

Results flagged for a closer look

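The response to OTX015 differed between the lines by a test of the difference itself (limma, all 18 arrays) past the thresholds for 4 genes of the further lists and 0 members. The member SLC2A3, the glucose transporter GLUT3, met the adjusted p alone, with a response lower in MDA-MB-468 by 0.48 on the log2 scale (difference -0.48, adjusted p = 0.0439), and its signal in MDA-MB-468 was at or below the floor on 8 of 9 arrays. SLC2A12, a hexose transporter, differed by -0.73 (adjusted p = 0.00483), with responses of -0.58 in MDA-MB-468, against 0.15 in MDA-MB-231. SLC2A10 ILMN_2120247, another transporter of that family, differed by -0.64 (adjusted p = 0.0452), with responses of -0.66 in MDA-MB-468, against -0.02 in MDA-MB-231, where it was near or below the floor. PRKAA1 ILMN_2357577, a catalytic subunit of the energy sensor AMPK, differed by -0.56 (adjusted p = 0.0150), with responses of -0.38 in MDA-MB-468, against 0.17 in MDA-MB-231. The other tested PRKAA1 probe (ILMN_1783889) had responses of -0.34 in MDA-MB-468, against 0.03 in MDA-MB-231, and its difference between the lines did not pass. IDH3B, a subunit of the mitochondrial isocitrate dehydrogenase, differed by -0.70 (adjusted p = 0.0322), with responses of -0.57 in MDA-MB-468, against 0.13 in MDA-MB-231. Neither PRKAA1 nor IDH3B passed the thresholds under OTX015 within either line. The OTX015 concentration was 650 nM for MDA-MB-468 but 75 nM for MDA-MB-231, so that line and concentration cannot be told apart.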

How the results depend on the processing

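The count of member probes past the thresholds under OTX015 in MDA-MB-468, 3 as reported, was 0 with median scaling, 0 with OTX015 and DMSO arrays alone and 0 with no time term, which is the fit without time as a block. Leaving out arrays gave 0 to 5, with 5 without the OTX015 array at 4 h, 1 without the OTX015 array at 24 h, and 0 without the 8 h arrays, the 24 h arrays, the DMSO array at 4, 8 or 24 h, the untreated array at 8 h or the OTX015 array at 8 h. Over 23 alternatives PFKFB3 ILMN_2186061 differed by 0.38 to 0.85 and passed in 12 (adjusted p 0.00477 to 0.580), PKM ILMN_1775327 by 0.23 to 0.63 and passed in 9, and TPI1 ILMN_2181191 by 0.24 to 0.58 and passed in 9. Over all probes the count of 1017 fell to 0 with median scaling, 229 with OTX015 and DMSO alone and 347 with no time term. In MDA-MB-231 the member count stayed at 0 under every alternative run, as did DMSO against untreated in both lines. The difference between the lines in response, 0 as reported, was 1 with no background correction, 1 with offset 16, 1 with cyclic loess, 1 with the deposited log2 table, 1 with array weights and 1 with DMSO and untreated arrays as controls, and 0 to 2 when arrays were left out, with 2 when the MDA-MB-468 array of OTX015 at 24 h was dropped. Between the lines without drug the count of 25 ranged from 22 to 26, and ALDOA ILMN_1736700, between -1.95 and 0.87 when arrays were left out, turned sign without the 4 h arrays. For 24 h against 4 h in MDA-MB-231 the count of 1 was 0 with no background correction, 0 with offset 16, 0 with the deposited table, 0 against 8 h, 2 with median scaling and 0 to 1 when arrays were left out (0 without the untreated array at 4 h or the DMSO array at 24 h). In MDA-MB-468 the count of 11 was 33 with median scaling, 0 against 8 h and 7 to 11 when arrays were left out, with 7 without the untreated array at 4 h. Against 8 h the sign turned for ALDOA ILMN_1736700 (-0.42), PKM ILMN_1672650 (-0.47), PGAM1 ILMN_1661366 (-0.63) and ILMN_2112417 (-0.53) and PFKL ILMN_1713037 (-0.078). The cause of these changes was not tested. With 1 array for each condition, the number of arrays limits the precision.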
